A study of Mus musculus with 40 samples.

Results

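The secretory pathway and endoplasmic reticulum (ER) folding genes were followed in single cells of the mouse blastocyst. Members were chosen by gene symbol, with earlier results of these data known. The rule took every gene of the count table named Sec, Ssr, Pdia or Tmed followed by a digit, Spcs followed by a digit, or Copa, Copb, Cope, Copg or Copz, with the unrelated Cops genes left out. This rule gave 60 members of 24499 genes, of which 57 had an expression level and 50 had an allelic ratio. The study asked how the paternal X chromosome is reactivated in the inner cell mass (ICM), and it sequenced polyadenylated RNA of 40 single cells from 13 female F1 embryos of C57BL/6J mothers and CAST/EiJ fathers, obtained by natural mating. The cells fall into 4 classes: 13 of primitive endoderm (PrE, E4.0, 3 embryos), 10 of epiblast (Epi, E4.0, 2 embryos), 14 of ICM (E3.5, 7 embryos) and 3 of trophectoderm (TE, E3.5, 3 embryos). The study describes the PrE and Epi cells as precursors of these lineages. The stage comes from the sample labels, and the class and the embryo from the study's own list of cells, in which the E4.0 cells were told apart by lineage factors and not by the members. ICMs were freed of their outer cells by immunosurgery before dissociation. The whole TE class, with 3 ICM cells (embryos 4, 8 and 12), was taken from an earlier series, so TE and series cannot be told apart in any comparison with TE. Between PrE and TE the stage differs as well, and it cannot be told apart from the class either.

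Proteins that leave the cell are threaded into the ER through the Sec61 channel, helped by Sec62, Sec63 and the translocon-associated TRAP complex (Ssr genes), and lose their signal peptide to the signal peptidase (Sec11 and Spcs genes). In the ER lumen, protein disulfide isomerases (Pdia genes) form and rearrange disulfide bonds. Folded cargo leaves in vesicles coated by COPII (Sec13, Sec23, Sec24 and Sec31), which bud at exit sites organised by Sec16, whereas COPI coats (Cop genes) return proteins from the Golgi, and p24 proteins (Tmed genes) act as cargo receptors in both directions. The primitive endoderm is the epithelium that covers the ICM, gives rise to the parietal and visceral endoderm, and secretes the laminins and collagen IV of its basement membrane.

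Levels per cell are given as RPRT, a read density scaled to the mapped reads of the cell and to the length that reverse transcription reaches from the 3′ end. Comparisons used the counts, summed over the cells of 1 class and 1 embryo into 15 sums and given as counts per 1000000 (CPM) scaled by the trimmed mean of M values (TMM). The embryo was the replicate. Total counts ranged from 1019112 to 12689903 per PrE cell, from 6013161 to 11236299 per Epi cell, from 2671531 to 12833051 per ICM cell and from 5462656 to 8097555 per TE cell, and 3 PrE cells and 1 ICM cell lay under 4000000. The sums of TE embryo 5 and PrE embryo 15 stood apart in scaling, with TMM factors of 0.588 and 0.662. Marker levels went with the PrE, Epi and TE names. For PrE and Epi this is no independent check, since factors such as Gata4, Gata6, Nanog and Prdm14 had served to name the cells. The summed level of 8 PrE markers was 1487 to 3304 CPM in PrE, 10.95 to 138 CPM in Epi and 102 to 795 CPM in TE. Of these, Lrp2 went the other way against TE, with means of 51.9 CPM in PrE and 164 CPM in TE. The 7 Epi markers summed to 88.9 to 402 CPM in PrE and 1959 to 2727 CPM in Epi. The 7 TE markers summed to 13.96 to 73.9 CPM in PrE and at least 15690 CPM in TE. The ICM class was mixed in these lists, at 3.61 to 1007 CPM of PrE markers, 160 to 2653 CPM of Epi markers and 70.6 to 2517 CPM of TE markers, and the part of these in the comparison with ICM was not tested.

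Of the 57 members with a level, 45 had a mean RPRT above 4 in PrE, the limit the study used for a well expressed gene, 46 in ICM, 44 in Epi and 44 in TE. Most of the pathway was thus transcribed in every class, and the classes differed in level. Of the 51 members above this limit in any class, 28 had their highest class mean in PrE, 17 in TE, 4 in Epi and 2 in ICM. The lowest class mean was in TE for 26 of them, in Epi for 16, in PrE for 6 and in ICM for 3. No share over all genes is given for these counts. Each TE mean rests on 3 single cells: that of Copg2, at 22.2 RPRT, came mainly from 1 cell at 66.5 RPRT.

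Together the members made up 0.748% ± 0.139 (SD, n = 3 embryos) of the summed RPRT of a PrE cell, 0.501% ± 0.0430 (n = 2) of an Epi cell, 0.483% ± 0.0985 (n = 7) of an ICM cell and 0.353% ± 0.0476 (n = 3) of a TE cell. The 3 PrE embryos were at 0.847%, 0.590% and 0.808%, above both Epi embryos, at 0.471% and 0.531%. The PrE and ICM embryos overlapped, since the single ICM cell of embryo 4 was at 0.643%. Without Pdia6, the most abundant member in PrE, the share was 0.644% ± 0.0823 in PrE and 0.464% ± 0.0555 in Epi, and the PrE embryos, at 0.549% or more, still lay above the Epi embryos, at 0.504% or less. No test was run on this sum.

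**Figure D1:**
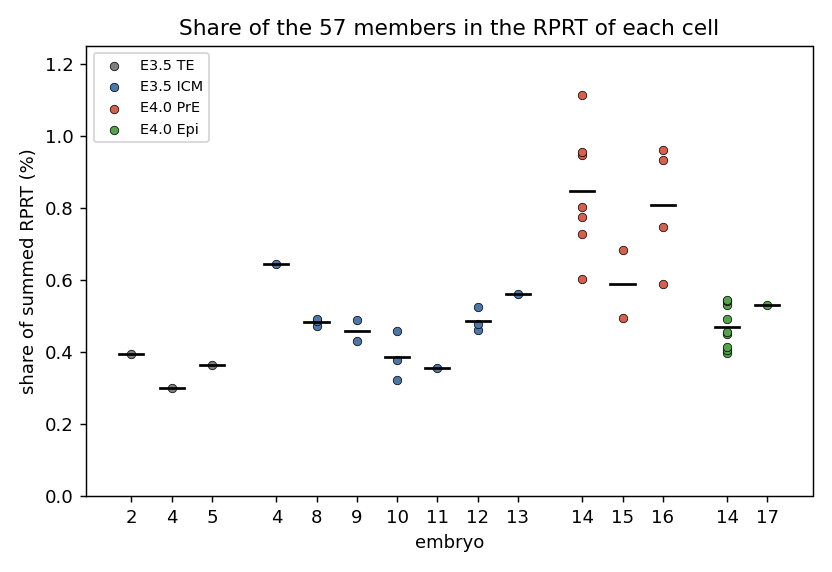
Share of the 57 members in the summed RPRT of each cell (y axis, %), by embryo (x axis) and class; points are cells and bars are embryo means. PrE cells spread from 0.495% to 1.11%, and Epi cells from 0.396% to 0.544%.

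The promoters of Pdia6, the most abundant member in PrE, and Sec24d, which had 3466 reads in PrE and 3 in Epi, are shown because a branch of the ER stress response acts through known elements, the ER stress element (ERSE, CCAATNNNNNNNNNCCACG) and the unfolded protein response element (UPRE, TGACGTGG). RefSeq promoters (GRCm38.p6) were found for 52 of 60 members, and the 250 bases before each start were searched on both strands. Of the members, 1 held an ERSE, Pdia6, against 0.13% of 27025 genes, and 3 held a UPRE (5.77%), Sec24d, Sec16b and Copb1, against 0.603%. Copb1 did not separate PrE from Epi: it was at 65.6, 15.4 and 64.3 CPM in PrE and 31.5 and 46.8 CPM in Epi. A link between these elements and the level in PrE was not tested. Capitals mark the element. The Pdia6 sequence lies at chr12:17266339-17266544 on the plus strand, before the earliest GENCODE start, and the Sec24d sequence at chr3:123267246-123267477 on the plus strand, where the element lies before the transcript start that the RefSeq promoter table uses and 15 bases after the earliest GENCODE start. The RefSeq gene as a whole starts further upstream, at 123264801, so the Sec24d element lies inside it.
Pdia6: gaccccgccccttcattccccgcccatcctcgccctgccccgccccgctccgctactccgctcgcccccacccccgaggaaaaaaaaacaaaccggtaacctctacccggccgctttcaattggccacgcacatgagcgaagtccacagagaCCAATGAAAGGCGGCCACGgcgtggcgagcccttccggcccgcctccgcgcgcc
Sec24d: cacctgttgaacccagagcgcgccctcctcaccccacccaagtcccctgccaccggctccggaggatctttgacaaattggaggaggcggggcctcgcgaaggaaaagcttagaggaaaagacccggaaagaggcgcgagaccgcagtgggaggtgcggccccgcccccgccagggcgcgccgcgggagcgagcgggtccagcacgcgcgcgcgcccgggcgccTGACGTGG

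In all, 10 motifs were searched. The CCACG part of the ERSE stood in 29 members (55.8%), against 31% of all genes, the CCAAT box in 24 (46.2%, against 37.5%) and the ETS motif CCGGAAG in 12 (23.1%, against 7.83%). The shorter UPRE core TGACGTG, which lies within the UPRE, stood in the same 3 members (1.85% of all genes). The GATA motif AGATAAG stood in 2 members, Ssr1 and Sec61a2 (3.17% of all genes), the cyclic AMP element TGACGTCA in 1, Cope (1.77% of all genes), and the second ER stress element (ATTGG and CCACG with 1 base between them) and the YY1 motif (AAGATGG followed at once by CGGC) in 0 (0.037% and 0.248% of all genes). A match describes letters in this window and not a bound site.

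At the channel itself, Sec61a1, the pore-forming subunit of the translocon, was at 405, 907 and 498 CPM in PrE embryos 14, 15 and 16, at 166 and 256 CPM in Epi embryos 14 and 17, and at 139, 97.7 and 9.87 CPM in TE embryos 2, 4 and 5. In the 7 ICM embryos its lowest, median and highest values were 56.8, 242 and 283 CPM. Every PrE embryo was above every other sum. The log2 fold change of PrE over Epi was 1.51 ± 0.89 (SE) and that over ICM 1.51 ± 0.60, with adjusted p = 0.70 and 0.52 by edgeR's quasi-likelihood test. Here and below, the SE of a log2 fold change was back-calculated from the test. It is the absolute log2 fold change divided by the square root of the F statistic, and only a rough guide for genes with few counts.

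Sec61a1 and, in what follows, Sec11a, Ssr1, Ssr3, Pdia4, Sec16a, Copa, Copb2 and Copg1 were chosen after their values were seen. The other channel genes did not share the order of Sec61a1. Sec61b, the small subunit with the highest mean RPRT of the translocon genes, was at 213 ± 106 RPRT (SD, n = 3) in TE, 145 ± 66 (n = 3) in PrE, 120 ± 92.9 (n = 7) in ICM and 85.8 ± 78 (n = 2) in Epi, and all neighbours in this order overlapped. Sec61g, the other small subunit, was at 24.6, 42.6 and 25.1 CPM in PrE and at 4.98 to 132 CPM in ICM (log2 fold change −0.76 ± 0.95, adjusted p = 0.90). Sec61a2, the paralog of Sec61a1, was low at 3.94 ± 3.48 RPRT in PrE, and its values of 14, 0.00 and 10.5 CPM in PrE overlapped those of TE, at 16.4, 1.37 and 329 CPM. How the counting treated reads that fit both paralogs was not tested. Sec63, which recruits the lumenal chaperone BiP to the channel, was at 87.1, 33.6 and 52.4 CPM in PrE and 14.1 and 4.79 CPM in Epi. Its log2 fold change over Epi was 2.61 ± 1.49 (adjusted p = 0.69, edgeR), and it exceeded 4 RPRT in 9 of 13 PrE cells and 3 of 10 Epi cells.

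The TRAP complex, which assists the entry of many signal peptides, had 4 members. Ssr3 was at 326, 210 and 284 CPM in PrE, 101 and 118 CPM in Epi, 127, 64.6 and 115 CPM in TE, and at a lowest, median and highest value of 63.5, 119 and 201 CPM in ICM. Ssr1 was at 272, 220 and 191 CPM in PrE and at most 186 CPM in any other sum. For both genes the PrE embryos lay above all others, by 1.03-fold for Ssr1 and 1.05-fold for Ssr3. Without TMM scaling this order was lost: PrE embryo 15 was then at 146 CPM of Ssr1 and 139 CPM of Ssr3, below ICM embryo 12 (225 CPM) and ICM embryo 4 (224 CPM). Ssr3 had a log2 fold change of 1.32 ± 0.75 over Epi and 1.2 ± 0.52 over ICM, with adjusted p = 0.68 and 0.52 by edgeR.

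Ssr2, the most abundant TRAP gene over the 4 classes, did not separate PrE from Epi. It was at 607, 1317 and 915 CPM in PrE and 569 and 1086 CPM in Epi (log2 fold change 0.19 ± 0.80, adjusted p = 1, edgeR). Against TE, where it was at 180, 74.8 and 17.6 CPM, it was higher in PrE by 3.38 ± 0.78 on the log2 scale (adjusted p = 0.028). Ssr4, on the X chromosome, was the X-linked member. It was at 299, 1177 and 394 CPM in PrE and 211 and 293 CPM in Epi, and at 609 ± 292 RPRT (n = 3) in PrE, 475 ± 90.02 (n = 7) in ICM, 354 ± 184 (n = 3) in TE and 333 ± 77.1 (n = 2) in Epi. The highest PrE value was that of embryo 15, and the gene had no allelic ratio in the file.

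The signal peptidase removes signal peptides at the lumenal side of the channel. All 5 of its genes had a positive log2 fold change over Epi, from 0.83 to 1.67. Sec11a, a catalytic subunit, was at 138, 191 and 121 CPM in PrE and 34.7 and 66.4 CPM in Epi, and these embryos did not overlap. Spcs1, a small subunit and the most abundant of the 5, had its highest class mean in TE. It was at 289 ± 51.6 RPRT (n = 3) in TE, 180 ± 33.0 (n = 7) in ICM, 113 ± 3.44 (n = 3) in PrE and 79.4 ± 0.0326 (n = 2) in Epi, and in CPM every TE embryo, at 190, 281 and 399, lay above every PrE embryo, at 64.4, 177 and 103.

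Protein disulfide isomerases gave the highest single level in PrE. Pdia6, an ER oxidoreductase that pairs with BiP and whose promoter with its ERSE is printed above, was at 702 ± 349 RPRT (SD, n = 3 embryos) in PrE, 244 ± 81.1 (n = 2) in Epi, 230 ± 210 (n = 7) in ICM and 98.3 ± 81.0 (n = 3) in TE, and was the first of the 57 members in PrE alone. In CPM it was at 2044, 1119 and 1666 in PrE, 577 and 358 in Epi and 20.4, 281 and 607 in TE, with 131, 180 and 1131 as the lowest, median and highest ICM values. PrE was thus above Epi and TE in every embryo, while ICM embryo 4 reached the lowest PrE embryo. The log2 fold change over ICM was 1.82 ± 0.73 and over Epi 1.78 ± 1.09 (adjusted p = 0.52 and 0.72, edgeR).

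Pdia5 divided the classes differently. It was at 110, 135 and 176 CPM in PrE and at 45.7, 101 and 203 CPM as the lowest, median and highest of ICM, but at 18.1 and 28.4 CPM in Epi and 2.86, 0.14 and 4.78 CPM in TE. PrE and ICM overlapped in this gene, and both lay above Epi and TE. Against TE it was higher in PrE by 5.79 ± 1.1 on the log2 scale (adjusted p = 0.013, edgeR), and against Epi the log2 fold change was 2.59 ± 1.1 (adjusted p = 0.63). Pdia3, the isomerase that acts with calnexin and calreticulin on glycoproteins, was at 124, 72.6 and 58.9 CPM in PrE and 4.58 to 36.8 CPM in ICM, with no overlap (log2 fold change 1.96 ± 0.90, adjusted p = 0.54), but overlapped Epi at 46.0 and 75.7 CPM. Pdia4 was at 74.9 and 69.3 CPM in PrE embryos 14 and 16 and at 0.22 CPM in embryo 15.

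**Figure D2:**
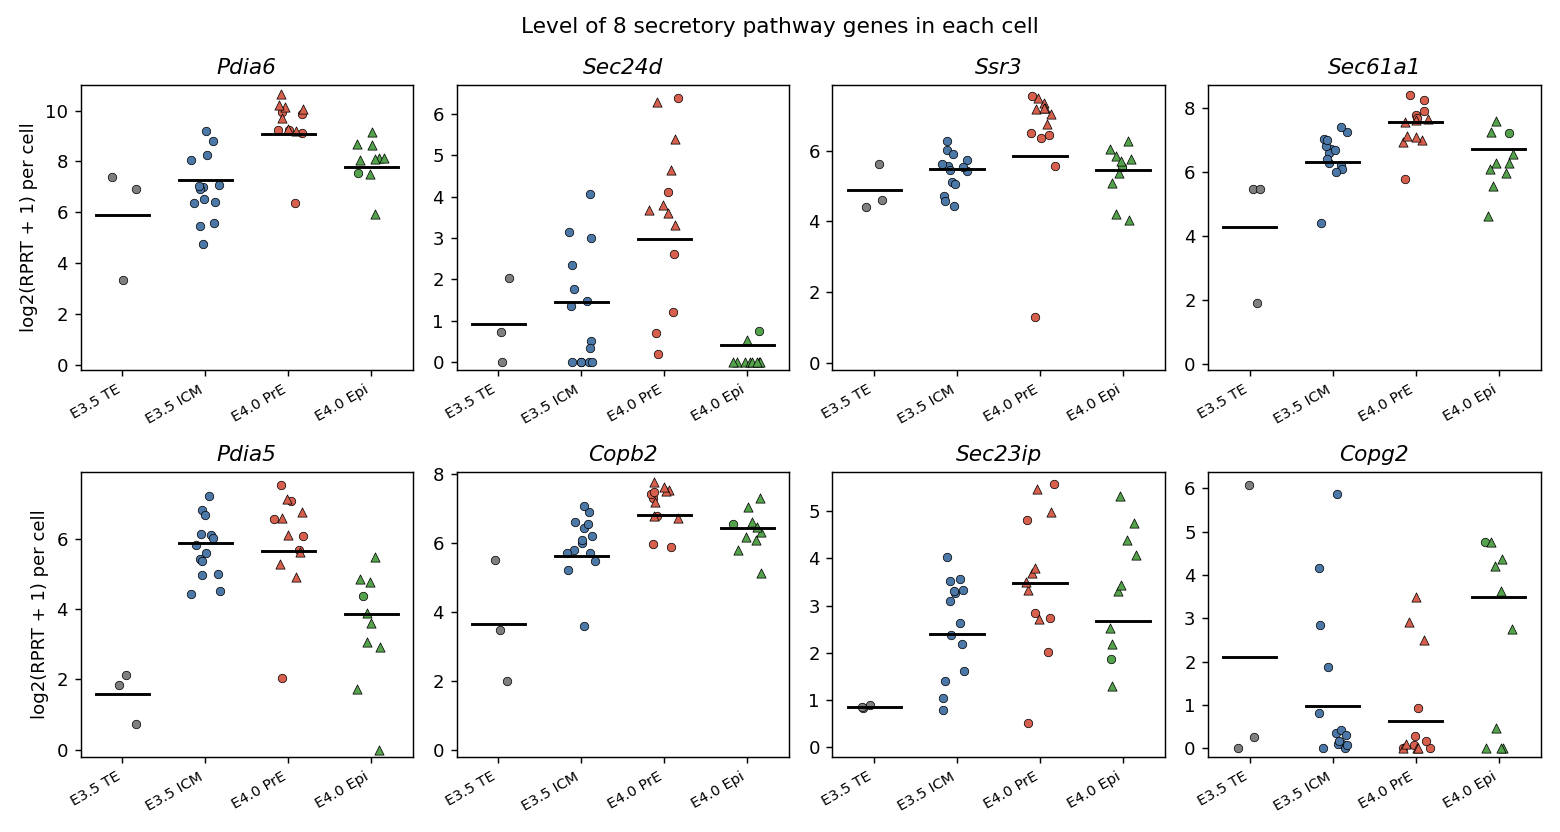
Level of 8 members in each cell, as log2(RPRT + 1) (y axis), by class (x axis). Points are cells, triangles mark cells of embryo 14, and bars are the mean of embryo means. Sec24d is above 4 RPRT in 10 of 13 PrE cells and in 0 of 10 Epi cells.

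Among the COPII genes, Sec24d, 1 of 4 adaptors that pick the cargo of the vesicle and the gene of the UPRE sequence above, had the widest gap between PrE and Epi that rested on all PrE embryos. It was at 31.1, 6.35 and 44.9 CPM in PrE and at 0.02 and 0.11 CPM in Epi, where 3 reads were counted in all, against 3466 reads in PrE. In TE it was at 0.00, 0.27 and 0.60 CPM, and in ICM its lowest, median and highest values were 0.00, 1.11 and 21.6 CPM, so that the ICM embryos overlapped PrE. By edgeR the adjusted p was 0.61 against Epi, 0.64 against ICM and 0.14 against TE. Against Epi, DESeq2 and limma-voom both called it.

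The paralogous adaptors did not follow Sec24d. Sec24b was at 44.4, 17.7 and 8.58 CPM in PrE and 32.7 and 52.0 CPM in Epi, and in TE at 0.00, 2.33 and 1.5 CPM (log2 fold change over TE 4.19 ± 1.59, adjusted p = 0.14). Sec24a and Sec24c also overlapped between PrE and Epi. Sec23b, an inner coat subunit, was lower in PrE than in Epi in all embryos, at 119, 29.0 and 55.8 CPM against 124 and 171 CPM (log2 fold change −1.12 ± 0.99, adjusted p = 0.91).

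The exit site genes differed in pattern. Sec23ip, which binds Sec23 and Sec31 at exit sites, was at 76.7, 54.8 and 42.9 CPM in PrE, 39.4 and 6.10 CPM in Epi and 1.06 to 27.7 CPM in ICM, and near 0 in TE at 0.82, 1.51 and 0.90 CPM. It was higher in PrE than in TE by 5.74 ± 1.47 on the log2 scale (adjusted p = 0.043). Sec16a, the exit site scaffold, was at 87.5, 66.5 and 89.1 CPM in PrE and at most 51.0 CPM elsewhere, an order that without TMM scaling was lost (43.97 CPM in PrE embryo 15, 57.7 CPM in Epi embryo 14). Sec16b, its paralog, rested on 1 cell: it was at 66.3 RPRT in a cell of embryo 16, and at 0.02, 0.00 and 24.6 CPM in the 3 PrE embryos. It had 0 reads in Epi and in TE, so that with 3 counts over the class as the floor the PrE mean was at least 248-fold and 42.6-fold higher. Sec13, the most abundant member of this group and also a subunit of the nuclear pore, was at 468, 649 and 767 CPM in PrE and 277 and 216 CPM in Epi (log2 fold change 1.35 ± 0.87, adjusted p = 0.75). Sec22b, a SNARE of ER to Golgi transport, was at 62.3, 75.4 and 109 CPM in PrE, 33.7 and 42.4 CPM in Epi and 7.99 to 96.9 CPM in ICM.

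In the COPI coat, Copb2 was at 410, 234 and 393 CPM in PrE, 196 and 140 CPM in Epi, 25.4, 100.5 and 5.08 CPM in TE, and 24.9, 146 and 188 CPM as the lowest, median and highest of ICM. Every PrE embryo was above every other sum with TMM scaling, but without it PrE embryo 15, at 155 CPM, lay below Epi embryo 14, at 222 CPM. Copa and Copg1 were also above Epi in every PrE embryo. Cope, the most abundant coat gene, was at 281, 948 and 397 CPM in PrE and 145 and 330 CPM in Epi. Copg2 was the exception of the coat: it was at 4.26, 0.79 and 0.14 CPM in PrE and 17.5 and 41.0 CPM in Epi (log2 fold change −4.07 ± 2.51, adjusted p = 0.73). Its paralog Copg1 was at 333, 215 and 286 CPM in PrE and 155.5 and 66.1 CPM in Epi, so the log2 fold changes of the paralogs had opposite signs. Copg2 was above 1 RPRT in 3 of 13 PrE cells and 6 of 10 Epi cells, and against TE its low value in PrE rested on the single cell of TE embryo 2, at 158 CPM, since the other TE embryos were at 0.00 and 0.60 CPM. Without that cell the log2 fold change against TE was 2.28 in place of −4.92.

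Of the p24 receptors, Tmed10 was the most abundant, at 581, 776 and 550 CPM in PrE, 261 and 533 CPM in Epi and 157 to 453 CPM in ICM. Tmed9 was at 46.3, 10.6 and 57 CPM in PrE and 10.2 and 0.98 CPM in Epi, a log2 fold change of 2.76 ± 1.74 (adjusted p = 0.74). Tmed3 was patchy, at 23.8, 33.9 and 6.61 CPM in PrE and 6.43 and 0.00 CPM in Epi, and above 4 RPRT in 7 of 13 PrE cells. Tmed8 was at 6.99, 0.07 and 1.39 CPM in PrE and 11.7 and 5.23 CPM in Epi, and had 0 reads in TE, which puts the mean in PrE at least 14.6-fold above the floor of 3 counts over the class. Among members with another role, Sec14l1, a lipid-binding Sec14-like protein, was at 48.9, 70.3 and 110 CPM in PrE and 55.4 and 10.1 CPM in Epi. Sec14l4 was nearly absent from PrE, at 0.00, 0.07 and 0.03 CPM, and at 12.9, 5.89 and 0.30 CPM in TE (log2 fold change −7.53 ± 3.28, adjusted p = 0.18).

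**Figure D3:**
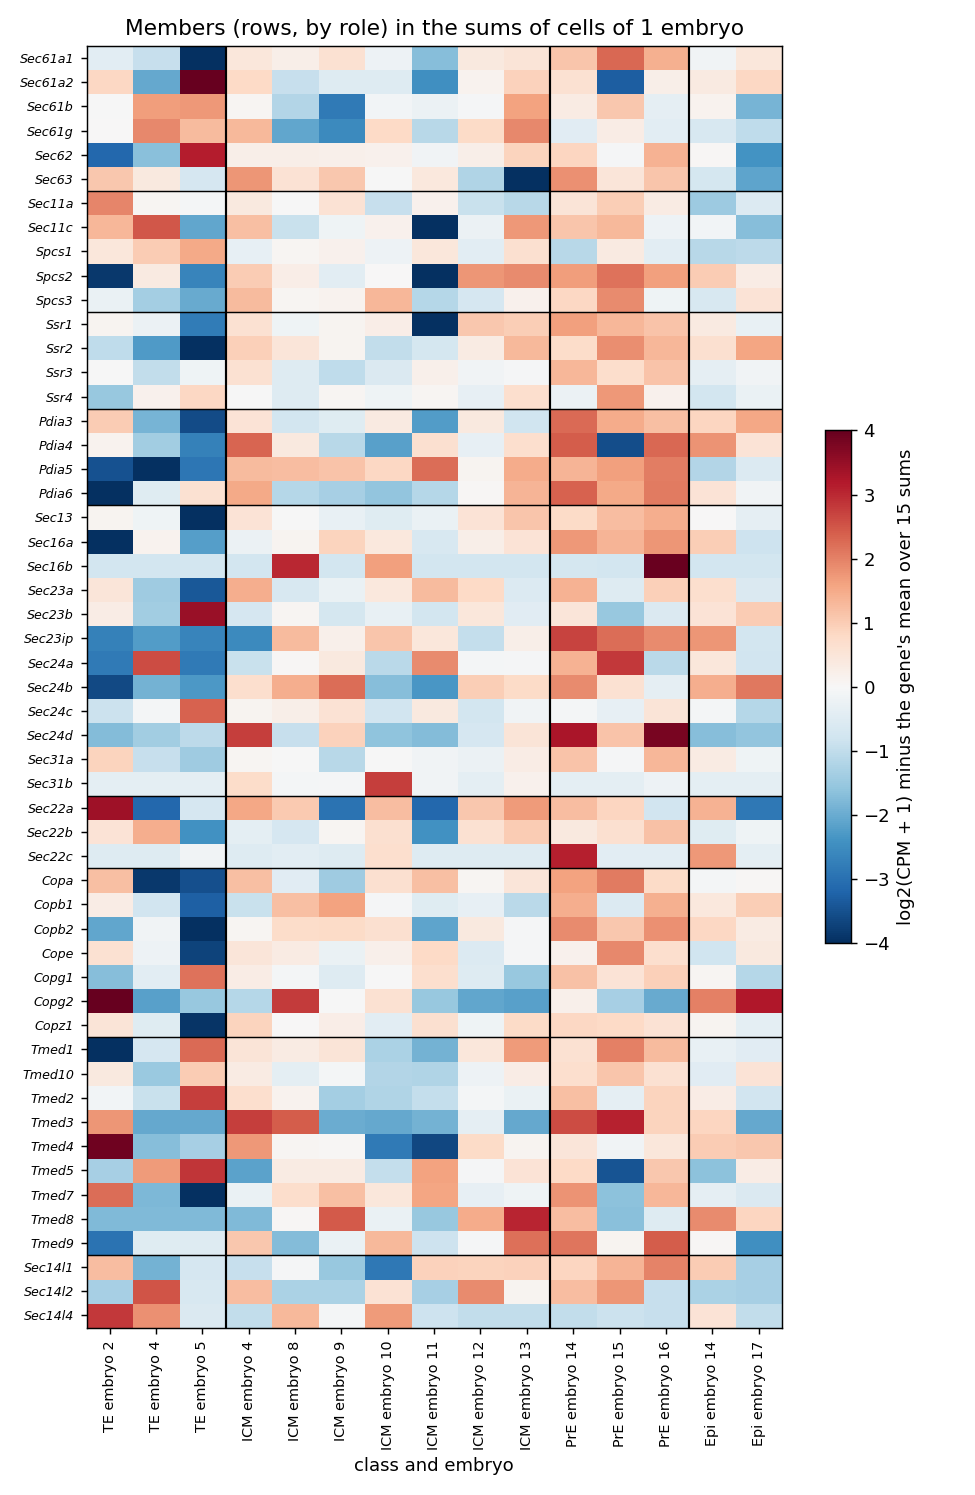
The 53 members tested (rows, grouped by role) in the 15 sums of cells of 1 class and 1 embryo (columns). Colour gives log2(CPM + 1) minus the mean of the gene over the 15 sums, cut at −4 and 4. Pdia6, Sec61a1, Ssr1, Ssr3 and Copb2 are red in all 3 PrE columns.

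The first comparison asks how the pathway differs between the 2 lineages of the E4.0 ICM. Of the 53 members that passed the filter on low counts, 46 had a log2 fold change above 0 in PrE over Epi. The median of the members was 1.15, against 0.11 over all 12599 genes tested, and 86.8% of the members lay above the median of all genes. Every role group had a median between 0.89 and 1.33. In 24 of the 53 members (45.3%) every PrE embryo was above both Epi embryos, against 13% of all genes, and in 3 members (5.66%), Copg2, Sec23b and Tmed4, every PrE embryo was below, against 13.5% of all genes. With RPRT averaged over cells and no TMM scaling, 13 members were above, against 9.32% of all genes, and without TMM scaling of the counts 17, against 10.14%.

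By edgeR, 0 members and 0% of all genes had an adjusted p under 0.05, and 2 members, Sec24d and Pdia5, against 7.66% of all genes had an unadjusted p under 0.05. By limma-voom 1 member was called, Sec24d (1.9% of all genes), also with the embryo as a block (2.71% of all genes). By DESeq2 2 members were called, Sec24d and Sec16b, against 3.3% of all genes. The shares of members called were close to or below those over all genes. Only 2 Epi embryos were available, and 1 of them gave 1 cell.

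The second comparison sets PrE against the earlier, E3.5 ICM. The median log2 fold change of the members was 0.81, against −0.05 over all genes, and 84.9% of the members lay above the median of all genes. In 8 members (15.1%), Sec61a1, Ssr1, Ssr3, Pdia3, Sec16a, Sec23ip, Copb2 and Tmed10, every PrE embryo was above all 7 ICM embryos, against 2.67% of all genes, and in 0 members every PrE embryo was below, against 1.46% of all genes. This count was 4 without TMM scaling, against 1.56% of all genes, and 2 with RPRT averaged over cells, against 0.94%. Without PrE embryo 15 it was 13, but no share over all genes is given for that count. By edgeR 0 members and 0% of all genes were called. An unadjusted p under 0.05 was found for 5 members, Sec61a1, Ssr3, Pdia3, Pdia6 and Sec23ip, against 9.21% of all genes. By limma-voom 1 member was called, Pdia6 (1.99% of all genes, and 1.92% with the embryo as a block), and by DESeq2 0 members were called (2.76% of all genes).

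The third comparison sets PrE of E4.0 against TE, the outer cells of the blastocyst, of E3.5. The median log2 fold change of the members was 1.38, against 0.53 over all genes, and 62.3% of the members lay above the median of all genes. Pdia5, Ssr2 and Sec23ip were called higher in PrE (3 of 53, or 5.66%, against 1.51% of all genes), and 0 members were called lower (0.802% of all genes). An unadjusted p under 0.05 was found for 17 members, against 23.1% of all genes. By limma-voom 6 members were called (11.3%, against 7.29% of all genes), with the embryo as a block 5 (9.43%, against 7.33%) and by DESeq2 11 (20.8%, against 20% of all genes). Every PrE embryo was above every TE embryo in 18 members (34%), against 18.4% of all genes, and below in 2 members, Spcs1 and Sec14l4, against 5.78%. The translocon and signal peptidase groups had negative medians here, −0.82 and −0.35, while the isomerases were at 2.63 and the COPII group at 2.31. Scaling mattered in this comparison. With DESeq2 size factors in edgeR, 24.2% of 293 called genes were higher in PrE, against 65.3% of 291 with TMM, 0 members were called, and the members' median was 0.48, against −0.02 over all genes.

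The call of Pdia5 against TE held without any 1 embryo, while that of Ssr2 was lost without TE embryo 4 or 5 or PrE embryo 15 or 16, and that of Sec23ip was lost without any 1 of the 6 embryos. Over all alternatives the adjusted p of Pdia5 ranged from 0.00075 to 0.063, that of Ssr2 from 0.0021 to 0.078 and that of Sec23ip from 0.00018 to 0.133. The 3 comparisons share the PrE sums, so their results are not independent of each other.

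**Figure D4:**
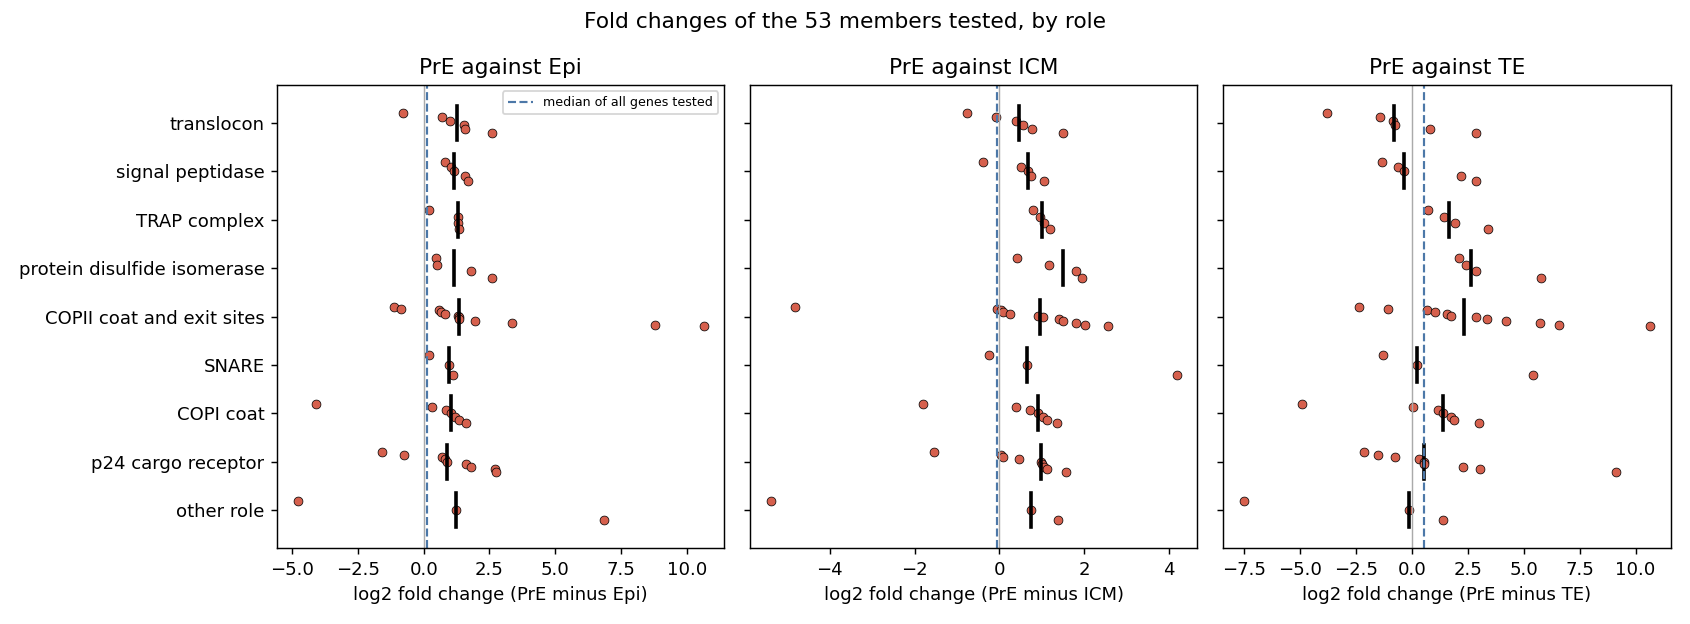
Log2 fold changes of the 53 members tested (x axis), PrE minus Epi, ICM or TE, grouped by role (y axis). Points are members, black bars are group medians, and the dashed line is the median of all genes tested. Against Epi all group medians lie to the right of the dashed line, and against TE those of the translocon, signal peptidase, SNARE and other genes lie to the left, with the p24 receptors at the line.

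Taking all classes at once, in a count chosen after the values were seen, the 3 PrE embryos were above all 12 other sums in 6 of 53 members (11.3%), against 0.937% of all genes. These were Sec61a1, Ssr1, Ssr3, Sec16a, Sec23ip and Copb2, which act at the channel, the exit site and the COPI coat. The lowest PrE embryo exceeded the highest other sum by 1.43-fold for Sec61a1, 1.30-fold for Sec16a and 1.19-fold for Copb2, and by 1.03-fold to 1.09-fold for the others. The count rested on the scaling: without TMM, or with RPRT averaged over cells, only Sec61a1 was left, 1 member against 0.55% and 0.36% of all genes, and without PrE embryo 15 the count was 9, against 2.8%. In 0 members were all PrE embryos below all other sums, against 0.262% of all genes.

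Embryo 14 gave 7 PrE and 9 Epi cells and so allowed a comparison within an embryo. Of 50 members with a mean RPRT above 4 in either class, 43 (86%) had a higher median in the PrE cells, against 49.9% of 9045 genes chosen in the same way. Of these 7 PrE cells, 3 were under 4000000 counts, and with the other 4 alone, an alternative chosen after the data were seen, it was 46 of 50 members, or 92%, against 53.7% of all genes. In 3 members (6%) every PrE cell was above every Epi cell, against 1.48% of all genes, and in 0 members was it below, against 1.22% of all genes. Pdia6 ranged from 584 to 1597 RPRT in the PrE cells, with a median of 1068, and from 60.4 to 563 RPRT in the Epi cells, with a median of 281. Ssr3 ranged from 107 to 179 RPRT in PrE cells and from 15.6 to 76.1 RPRT in Epi cells. Sec24d ranged from 9.02 to 77.2 RPRT in PrE cells, and in the Epi cells it was at most 0.45 RPRT. Cells of 1 embryo are not replicates, so these values describe embryo 14 and carry no test.

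**Figure D5:**
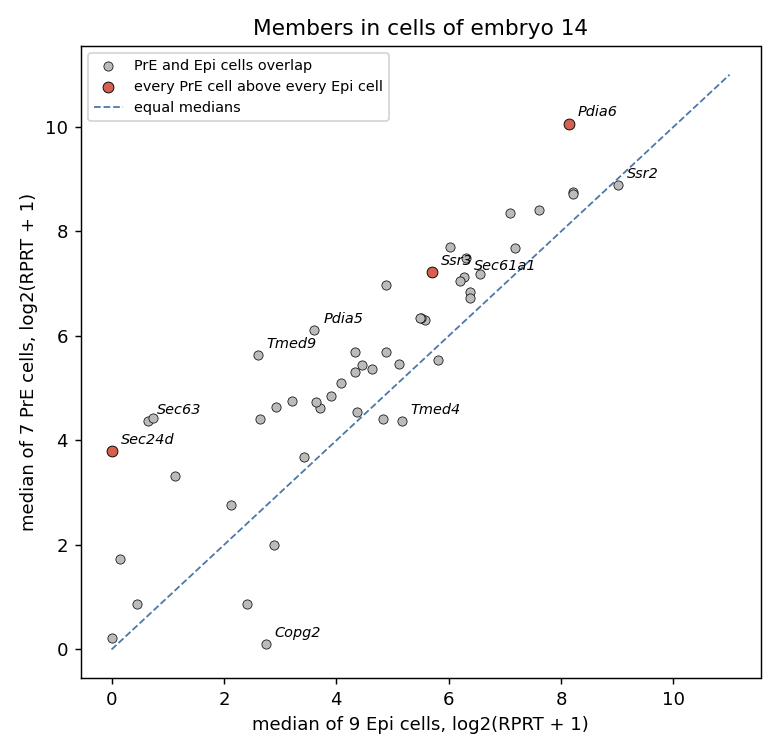
Median level of 50 members in the 9 Epi cells (x axis) and 7 PrE cells (y axis) of embryo 14, as log2(RPRT + 1). The dashed line marks equal medians. Of the 50 members 43 lie above the line, and Pdia6, Ssr3 and Sec24d (red) have no overlap between the cells of the classes.

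Within PrE the members varied by embryo. Embryo 15, with 2 cells, held the highest PrE value of Ssr4 (1177 CPM), Ssr2 (1317 CPM), Sec61a1 (907 CPM) and Cope (948 CPM), and the lowest of Pdia4 (0.22 CPM), Sec61a2 (0.00 CPM), Tmed5 (0.87 CPM) and Sec24d (6.35 CPM). Its low TMM factor raised all of its CPM values. Between single PrE cells, Sec13 spanned 179 to 630.5 RPRT and Pdia6 80.5 to 1597 RPRT.

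In the 14 E3.5 ICM cells of 7 embryos, 48 members had a mean RPRT above 4 over cells, where 46 had it by embryo means. The mean log2(RPRT + 1) of these 48 members had a Spearman rho of 0.20 over the 14 cells with Gata6, an early PrE factor. Its rho with Nanog, the Epi factor, which was looked at after the first value was seen, was −0.71, and with the total count −0.05. These are descriptions over cells that share embryos.

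Other genes of the pathway were described from lists of known function, which were also chosen with earlier results of these data known. In the list of 21 ER chaperones and stress genes the median log2 fold change was 1.31 over Epi, 1.38 over ICM and 1.83 over TE, and every PrE embryo was above Epi in 9 genes (42.9%, against 13% of all genes). The chaperone Hsp90b1 was at 1460 ± 486 CPM (SD, n = 3) in PrE, 539 ± 127 (n = 2) in Epi, 321 ± 360 (n = 7) in ICM and 185 ± 69.6 (n = 3) in TE, and P4hb, an isomerase that is also a subunit of collagen prolyl hydroxylase, had means of 1206 ± 741 CPM (PrE) and 247 ± 95.6 CPM (Epi). Of this list, Atf6, an ER stress sensor, was called higher than in TE. The 17 genes of signal recognition and glycosylation had medians of 0.70, 0.65 and 0.94. Ostc, a subunit of the oligosaccharyltransferase, ranged from 521 to 1242 CPM over the PrE embryos and from 154 to 162 CPM over the Epi embryos, and Srpr, the receptor of the signal recognition particle, was called higher than in TE. The 21 ER to Golgi partners had medians of 1.36, 0.68 and 0.97. Kdelr3, a receptor that returns escaped ER proteins, ranged from 84.4 to 102 CPM over the PrE embryos and from 0.05 to 0.33 CPM over the Epi embryos (log2 fold change 9.17, adjusted p = 0.41, edgeR), and the cargo receptor Lman1 was called higher than in TE. In these 3 lists 0 genes were called against Epi or ICM by edgeR, and at an unadjusted p under 0.05 there were 1, 1 and 2 genes against Epi (7.66% of all genes) and 8, 2 and 1 against ICM (9.21% of all genes). Against TE, 1 gene of each list was called higher in PrE, where 1.51% of all genes were. The limits of TE given above, in series, stage, single cells and scaling, hold for these calls too.

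The matrix cargo of the pathway was taken as a further list, chosen with the same earlier results known. In 7 of 10 cargo genes every PrE embryo was above both Epi embryos (13% of all genes), and the median log2 fold change was 4.20 over Epi, 1.44 over ICM and 4.22 over TE. The laminin chains Lamb1 and Lama1 were at 3231 ± 676 and 2167 ± 680 CPM (SD, n = 3) in PrE, and at 65 ± 41.9 and 7.76 ± 0.35 CPM (n = 2) in Epi. Sparc, a collagen-binding matrix protein, had means of 2823 CPM (PrE) and 27.1 CPM (TE). It was the gene of this list called against TE, where 1.51% of all genes were called higher in PrE. Nid1, Nid2 and Hspg2 had negative log2 fold changes against Epi, of −0.98, −3.02 and −0.49.

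The allelic ratio is the paternal share of reads over strain-specific sites. With over 4 RPRT in a cell and at least 2 such cells, 44 members had a ratio in PrE, 46 in ICM, 41 in Epi and 21 in TE, all autosomal. The median over members of the embryo mean was 0.53 in PrE, 0.52 in ICM, 0.51 in Epi and 0.51 in TE, and 42 of the 44 in PrE lay between 0.15 and 0.85. Ssr2 had a ratio of 0.53 ± 0.04 in 13 PrE cells (SD, n = 3 embryos) and Sec61a1 of 0.51 ± 0.11. Pdia5 was the lowest in PrE, at 0.21 ± 0.20 over 11 cells of 3 embryos, with cells from 0.00 to 0.60. Copa was at 0.78 ± 0.08 in Epi (10 cells, n = 2) and Tmed2 at 0.18 ± 0.13 in ICM (11 cells, n = 7). The read depth behind each ratio is not in the file, so no interval was given.

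Of the 60 members, 7 did not pass the filter on low counts. Copz2, Sec14l3, Tmed6 and Sec1 had at most 12.8 CPM in any sum, and Pdia2, Sec14l5 and Tmed11 had no level in the RPRT file.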

How the data were processed

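Reads were aligned by the authors to the mm10 build with C57BL/6J and CAST/EiJ bases (TopHat2 2.1.0) and counted per gene (HTSeq 0.6.1). The 3 tables were used as deposited: raw counts, RPRT (a length-scaled signal made by the authors) and allelic ratios (a fraction, paternal over both alleles, from sites with at least 5 reads and genes with at least 8). Reverse transcription reached about 3 kb from the 3′ end. Classes and embryos were taken from the study's cell list. Counts of the cells of 1 class and embryo were summed (15 sums). edgeR 4.0.16 (filterByExpr, TMM, quasi-likelihood F test, class means, Benjamini-Hochberg over 12599 genes, adjusted p under 0.05) gave the main result. It was also run on simulated counts, in which only planted genes differed between classes and all sums were independent. The real data differ in both points, so no conclusion on power is drawn from that run. limma 3.58.1 (voom, with and without the embryo as a block) and DESeq2 1.42.0 served as other tools, beside other scalings, no filter and leaving out single embryos. No 2 cells had identical counts. Embryos were the replicates. In the main fit all 4 classes shared 1 estimate of the spread per gene. The p-values of PrE against Epi thus also rest on the spread within ICM and TE. This spread is that between sums of the same class. Where a sum is 1 cell, this spread also holds that between cells. This was so for all of TE, for Epi embryo 17 and for ICM embryos 4, 11 and 13. The main fit took sums of the same embryo (PrE and Epi of embryo 14, ICM and TE of embryo 4) as independent. Members and lists were chosen with earlier results of these data known. Genes were described individually where they were called, among the 5 largest positive or 3 largest negative log2 fold changes of a comparison (mean RPRT above 4 in either class), the most abundant of a role, or X-linked, and others were added after their values were seen. Intervals of single counts cover counting error only.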

Additional observations from a re-analysis of the deposited data

Results flagged for a closer look

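In the 7 ICM embryos, each named gene was checked for an embryo far from the other 6. No chance rate is given, since the values are CPM of sums of 1 to 3 cells and some genes had no reads in several embryos. Of 25 genes, 5 had such a value. Embryo 13 (1 cell) was at 183 CPM of Sec61b, the next embryo at 63.2 CPM, and at 559 CPM of Ssr4, the next at 372 CPM. Embryo 4 (1 cell, of the earlier series) was at 21.6 CPM of Sec24d, the next at 5.26 CPM. Embryo 8 (3 cells, 1 of them of the earlier series) was at 30.7 CPM of Copg2, the next at 6.00 CPM, and at 12.3 CPM of Sec16b, the next at 4.12 CPM.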

How the results depend on the processing

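Limits first: 2 Epi embryos, 3 PrE embryos and 3 TE cells set the precision, TE came from another series, and the lone embryo left in a class was assumed to vary like the others. The median log2 fold change of the members stayed above 0 under every alternative run. Against Epi it was 0.85 without TMM scaling, 0.48 on log2(RPRT + 1), and 0.89 to 1.54 without single embryos. Against ICM it was 0.56 without TMM scaling, 0.46 on log2(RPRT + 1), 0.97 without the earlier series, and 0.70 to 0.98 without single embryos. Against TE it was 0.48 with DESeq2 size factors, 0.86 on log2(RPRT + 1), and 1.12 to 2.13 without single embryos. The median over all genes moved with the scaling, against Epi from 0.11 to −0.09, against ICM from −0.05 to −0.30 and against TE from 0.53 to 0.70 without TMM, and to −0.02 against TE with DESeq2 size factors.

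Members called against Epi were 2 by DESeq2 and 1 by limma-voom with or without the embryo as a replicate block (correlation 0.187), against ICM 1 by limma-voom with or without the block, and 0 to 0 without single embryos. Against TE they were 11 by DESeq2 (20% of all genes), 6 by limma-voom (7.29%), 5 with the block (7.33%), 0 with DESeq2 size factors (2.33% of all genes), 0 with the 2 classes alone (6.21%), and 1 to 4 without single embryos (0.45% to 4.31%). Members whose PrE embryos were above the other class were 13 (Epi) and 2 (ICM) on RPRT and 4 (ICM) without TMM scaling, and without single embryos 27 to 34 (Epi), 8 to 13 (ICM) and 19 to 28 (TE), since fewer sums separate more easily. Members above all 12 other sums were 1 without TMM scaling and 1 on RPRT, and 5 to 9 without single sums. For the counts without single embryos or sums no share over all genes is given here, so they say nothing about the members in particular. Signs turned for Sec16b against ICM without PrE embryo 16 (−7.17, range without single embryos −7.17 to 3.55), for Sec61g against ICM by limma-voom (0.0914, with the block 0.0964) and for Copg2 against TE without TE embryo 2 (2.28, range without single embryos −6.84 to 2.28). The cause of these changes was not tested. Without the earlier series PrE against TE gave no value, as no TE cell is left. Paternal shares moved by less than the spread between embryos.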
